A study of Mus musculus with 24 samples.

Results

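The subunit genes described here are the 8 that encode the catalytic beta subunits of the 20S proteasome and the PA28 activator: Psmb5, Psmb6 and Psmb7, the constitutive catalytic subunits, and Psmb8, Psmb9, Psmb10, Psme1 and Psme2, the interferon-inducible group. They were taken from the deposited table by gene symbol, 8 of 35770 named genes, with no threshold on their values. The libraries came from C57BL/6 mouse bone marrow cells differentiated with M-CSF into macrophages and kept in one of 4 media, each with vehicle or 100 nM CDDO-Me for 24 h, giving 8 groups of 3 independent samples. CDDO-Me (bardoxolone methyl) is a synthetic triterpenoid that activates NRF2 by reacting with KEAP1. The control medium (media) came from plates without tumour cells. The other 3 were conditioned for 48 h by LL2 Lewis lung carcinoma cells that were wild-type (WT CM), edited at KEAP1 (KEAP1 KO CM) or edited at NRF2 (NRF2 KO CM), and made up 75% of the medium on the macrophages. The edits were in the tumour cells alone, so the macrophages of all 8 groups carry both genes. M-CSF differentiation and serum-containing medium were shared by all groups. Library names carry a single line code for each edited gene, so each knockout medium may stand for 1 line.

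Proteasomes degrade ubiquitin-tagged proteins through a caspase-like (beta1, Psmb6), a trypsin-like (beta2, Psmb7) and a chymotrypsin-like (beta5, Psmb5) activity. In cells exposed to interferon, newly assembled particles take up beta1i (LMP2, Psmb9), beta2i (MECL-1, Psmb10) and beta5i (LMP7, Psmb8) instead, forming the immunoproteasome, which changes the peptides cut for MHC class I presentation. PA28 is a ring built of alpha (Psme1) and beta (Psme2) chains that caps the core particle and opens it. In macrophages the induced set is a classical readout of interferon gamma, with IRF1 among its transcription factors.

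Values are TPM (a transcript abundance unit scaled to a common total in each library), which account for transcript length. Levels of different genes may therefore be set side by side, with the limit that reads from sequence shared with other genes may be split wrongly. All 8 genes passed the filter on low values, the lowest reading being 23.2 TPM for Psmb9. Macrophage markers summed to 14934 to 38385 TPM in every library. Lyz2 made up most of that sum, at group means of 13261 to 29512 TPM. Under WT CM the means of Adgre1, Csf1r, Cd68, Itgam and Cd14 were lower with CDDO-Me, and those of Mertk, Fcgr1 and Lyz2 higher. Cd68 went from 2109 to 725 TPM and Fcgr1 from 50.5 to 479 TPM. Between 17817 and 18993 genes were above 0 in 22 libraries. The third libraries of NRF2 KO CM with vehicle and of NRF2 KO CM with CDDO-Me stood apart, with 15702 and 16299 genes above 0. In those 2 libraries Psmb5 was at 34.6 and 98.7 TPM, and Psme1 at 404 and 284 TPM. Every fit was therefore made over all 24 libraries and again over the other 22, and fitted differences are on the log2(TPM + 1) scale after scaling between libraries. In the first of them Psmb8 and Psmb10 were also low, at 47.5 and 40.6 TPM. The fits over 22 libraries are thus not independent of the values of Psmb5, Psme1, Psmb8 and Psmb10. The table gives TPM without read counts, so sequencing depth cannot be read from it. In whole-culture RNA, fewer cells of a type and less RNA per cell cannot be told apart.

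The induced catalytic genes Psmb8 and Psmb9 lie in the class II region of the major histocompatibility complex on chromosome 17, beside the peptide transporter genes Tap1 and Tap2. In GRCm39, Psmb9 runs on the minus strand at chr17:34400960-34406738, Tap1 on the plus strand at chr17:34405996-34416199 and Psmb8 on the plus strand at chr17:34416690-34420428. Psmb9 and Tap1 overlap over 743 exonic bases, and Psmb8 starts 490 bases past the end of Tap1. Psme1 (chr14:55815190-55822034, plus strand) and Psme2 (chr14:55824895-55829173, minus strand) are also neighbours, 2860 bases apart. Psmb10 is at chr8:106662362-106665077, Psmb7 at chr2:38478044-38534099 and Psmb5 at chr14:54850776-54855481, all on the minus strand, and Psmb6 is at chr11:70416183-70418684 on the plus strand. The 250 bases before the RefSeq start sites are shown for 2 induced genes and then for the constitutive genes whose products they replace, because these pairs moved differently; capitals mark motif matches.
Psmb8: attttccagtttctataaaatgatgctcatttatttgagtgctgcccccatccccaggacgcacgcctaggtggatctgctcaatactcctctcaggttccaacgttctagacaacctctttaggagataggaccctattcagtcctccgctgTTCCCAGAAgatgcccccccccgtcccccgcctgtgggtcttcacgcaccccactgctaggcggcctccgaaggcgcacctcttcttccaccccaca
Psmb9: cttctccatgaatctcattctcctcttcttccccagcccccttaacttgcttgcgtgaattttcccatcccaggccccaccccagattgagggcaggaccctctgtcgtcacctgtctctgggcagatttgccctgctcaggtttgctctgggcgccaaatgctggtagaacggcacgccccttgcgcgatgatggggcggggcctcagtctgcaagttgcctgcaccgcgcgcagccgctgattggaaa
Psmb5: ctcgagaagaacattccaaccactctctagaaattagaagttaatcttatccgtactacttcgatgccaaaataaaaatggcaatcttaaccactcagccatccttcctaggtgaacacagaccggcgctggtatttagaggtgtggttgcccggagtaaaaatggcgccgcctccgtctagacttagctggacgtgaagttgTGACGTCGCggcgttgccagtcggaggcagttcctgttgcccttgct
Psmb6: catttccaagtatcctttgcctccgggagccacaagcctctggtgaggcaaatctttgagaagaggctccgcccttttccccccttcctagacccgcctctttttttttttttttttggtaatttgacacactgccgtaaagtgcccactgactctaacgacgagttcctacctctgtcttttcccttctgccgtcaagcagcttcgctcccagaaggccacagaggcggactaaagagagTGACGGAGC
These windows are in GRCm38.p6, at chr17:34197945-34198194 (plus strand, Psmb8), chr17:34187331-34187580 (minus strand, Psmb9), chr14:54617996-54618245 (minus strand, Psmb5) and chr11:70525107-70525356 (plus strand, Psmb6). RefSeq windows of 250 bases before and 50 after the start were found for 7 of the 8 genes (not Psmb7). They were searched on both strands for 4 motifs: the interferon-stimulated response element core (GAAA and GAAA, 2 bases apart), the interferon gamma-activated site (GAS) motif TTCNNNGAA, the antioxidant response element core TGACNNNGC and the NF-kB core (GGGA and CC, 4 bases apart). Psmb8 held TTCCCAGAA, a GAS match, from 97 to 89 bases before the start, which 8.3% of the 32851 RefSeq windows also hold. Psme1 held a match to the response element core on the minus strand, TTTCGCTTTC, from base 10 to base 19 after its start, a motif present in 3.44% of windows. Psmb5 and Psmb6 each held an antioxidant element match, TGACGTCGC 47 bases and TGACGGAGC 9 bases before the start, against 12.4% of windows. No other match was found in the windows of these 7 genes, and 20.7% of windows hold the NF-kB core. The RefSeq starts may differ from the outer ends of the GRCm39 gene spans above, so a missing match speaks only for these windows. A match describes letters, not binding.

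CDDO-Me raised all 5 induced genes in macrophages under WT CM and under KEAP1 KO CM, by 2.69 to 6.30-fold and 3.23 to 6.52-fold, and none of them in media or under NRF2 KO CM. Psmb8, the beta5i subunit, was at 159, 159 and 175 TPM in the 3 WT CM vehicle libraries and at 942, 924 and 1018 TPM with CDDO-Me. Under KEAP1 KO CM it went from 162, 154 and 158 TPM to 873, 876 and 1009 TPM. Treated and vehicle libraries did not overlap in either medium, and the lowest treated value was 873 TPM. The fitted log2 difference of Psmb8 was 2.65 ± 0.25 (SE) under WT CM (limma adjusted p = 8.7e-08) and 2.70 ± 0.25 under KEAP1 KO CM (limma adjusted p = 7.0e-08). In media Psmb8 was at 133, 147 and 142 TPM with vehicle and 120, 121 and 149 TPM with CDDO-Me, and under NRF2 KO CM at 161, 142 and 47.5 TPM and then 136, 132 and 85.8 TPM. Here the groups overlapped.

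Psmb9, the beta1i subunit, was the lowest of the 8 genes with vehicle. Under WT CM it was at 49.7, 43.9 and 55.0 TPM with vehicle and 284, 294 and 269 TPM with CDDO-Me, a log2 difference of 2.60 ± 0.17 (limma adjusted p = 2.5e-10). Under KEAP1 KO CM the vehicle values of 47.6, 43.3 and 52.3 TPM stood against 274, 282 and 247 TPM, a difference of 2.64 ± 0.17 (limma adjusted p = 2.0e-10). In media the treated libraries of Psmb9, at 31.3, 28.6 and 37.2 TPM, lay near the vehicle libraries at 37.1, 39.4 and 42.9 TPM, and only the highest treated value reached into the vehicle range. Psmb9 shares 36.7% of the 31-base words of its canonical GENCODE transcript with Tap1, whose own difference under WT CM was 3.85 ± 0.27 on the log2 scale (limma adjusted p = 8.1e-10); how reads in that stretch were divided was not tested.

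Psmb10, the beta2i subunit, shares no such word with another gene. It already stood higher under WT CM with vehicle, at 227, 211 and 290 TPM, than in media with vehicle, at 139, 132 and 126 TPM. With CDDO-Me it reached 617, 563 and 626 TPM under WT CM and 604, 573 and 599 TPM under KEAP1 KO CM. The fitted log2 difference was 1.43 ± 0.27 (limma adjusted p = 3.1e-04) and 1.69 ± 0.27 (limma adjusted p = 4.9e-05), below those of Psmb8 and Psmb9 in the same media, a contrast between genes that was not tested. In media Psmb10 was at 136, 132 and 151 TPM with CDDO-Me, overlapping its vehicle libraries.

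Both PA28 genes moved with the catalytic set. Psme1 (alpha) went from 188, 175 and 195 TPM to 610, 605 and 632 TPM under WT CM, a log2 difference of 1.83 ± 0.32 (limma adjusted p = 1.5e-04), and from 182, 166 and 173 TPM to 556, 583 and 601 TPM under KEAP1 KO CM, a difference of 1.90 ± 0.32 (limma adjusted p = 9.3e-05). Psme2 (beta) went from 213, 212 and 231 TPM to 808, 788 and 824 TPM under WT CM (1.99 ± 0.09, limma adjusted p = 2.0e-12) and from 209, 215 and 188 TPM to 863, 829 and 852 TPM under KEAP1 KO CM (2.22 ± 0.09, limma adjusted p = 3.3e-13). The ranges of treated and vehicle libraries did not overlap for either gene in these media. In media Psme2 was at 175, 192 and 177 TPM with vehicle and 166, 173 and 172 TPM with CDDO-Me, ranges that did not overlap, and the difference did not pass (-0.09 ± 0.09, limma adjusted p = 0.82). The Psme1 to Psme2 ratio within a library was 0.849 ± 0.030 (SD, n = 3) under WT CM with vehicle and 0.763 ± 0.0075 with CDDO-Me. In the third NRF2 KO CM vehicle library it was 3.21, against 0.887 and 0.860 in the other 2. Psme2b, a near copy of Psme2 at chr11:48836181-48837017, shares 66.1% of the 31-base words of Psme2. It was at 19.9, 14.4 and 17.8 TPM under WT CM with vehicle and 53.6, 58.5 and 65.0 TPM with CDDO-Me (log2 difference 1.82 ± 0.25, limma adjusted p = 7.7e-06), so the split of reads between the copies is uncertain. Their sum moved from 236 ± 11.3 to 866 ± 21.6 TPM.

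**Figure D1:**
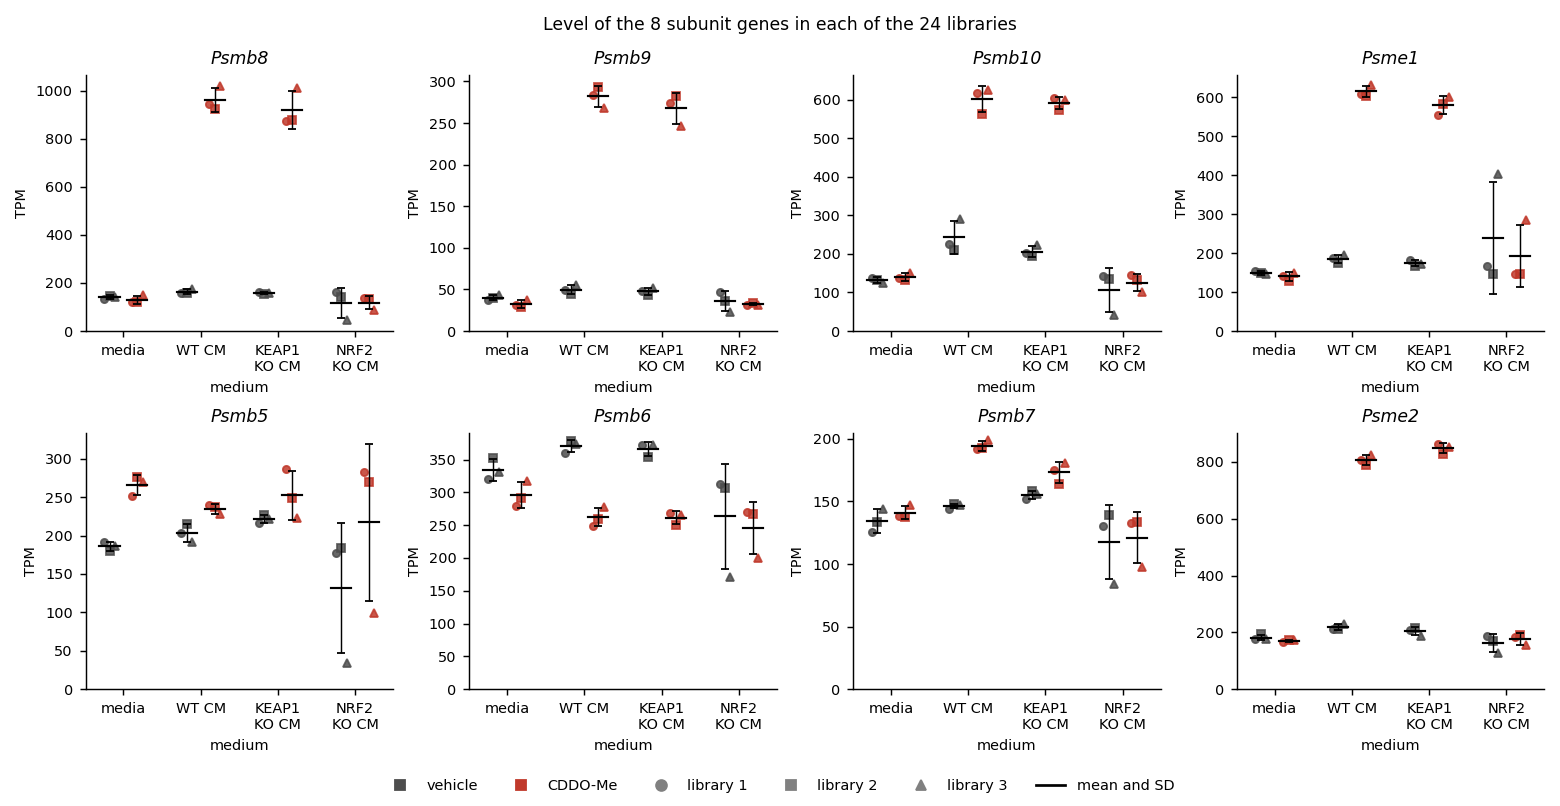
TPM of the 8 genes (one panel each, linear axis from 0) in the 4 media; grey marks are vehicle libraries, red marks CDDO-Me libraries, the mark's shape gives the library number, and black bars give mean and SD (n = 3). For the 5 induced genes the 6 treated libraries of WT CM and KEAP1 KO CM lie above all others, and the NRF2 KO CM triangles stand away from their groups for Psmb5 and Psme1. The vehicle triangle of NRF2 KO CM is also below its group for Psmb8 and Psmb10.

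The constitutive genes followed 3 separate courses. Psmb7 (beta2) rose by 0.52 ± 0.11 on the log2 scale under WT CM (limma adjusted p = 0.0011), from 144, 148 and 147 TPM to 192, 193 and 199 TPM, and by 0.33 ± 0.11 under KEAP1 KO CM (limma adjusted p = 0.031), from 152, 158 and 156 TPM to 175, 164 and 180 TPM. The libraries did not overlap in either medium. Without scaling between libraries the KEAP1 KO CM value was 0.16 and did not pass (limma adjusted p = 0.44), without the filter on low values it was 0.33 (limma adjusted p = 0.079), and leaving out KEAP1 KO CM vehicle replicate 1 or 2, or CDDO-Me replicate 1 or 3, also ended the call, at 0.29 to 0.31. In media Psmb7 was at 125 to 144 TPM with vehicle and 138 to 147 TPM with CDDO-Me, overlapping.

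Psmb6 (beta1) went the other way. Under WT CM it was at 360, 379 and 374 TPM with vehicle and 249, 259 and 277 TPM with CDDO-Me, a log2 difference of -0.39 ± 0.13 (limma adjusted p = 0.034). Under KEAP1 KO CM the libraries were also apart, 372, 354 and 373 TPM against 269, 250 and 265 TPM, but the difference of -0.31 ± 0.13 did not pass over 24 libraries (limma adjusted p = 0.089) and passed over 22 (-0.29 ± 0.07, limma adjusted p = 0.0030). The WT CM call was lost under relative log expression scaling (-0.36, limma adjusted p = 0.055), without the filter on low values (-0.37, limma adjusted p = 0.11) and without any of 5 of the 6 libraries compared (-0.42 to -0.32) or without KEAP1 KO CM CDDO-Me replicate 2 (-0.34, limma adjusted p = 0.063). In media Psmb6 was at 320 to 353 TPM with vehicle and 280 to 318 TPM with CDDO-Me, which did not overlap and did not pass.

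Psmb5 (beta5) was higher with CDDO-Me in all 4 media, and passed in each once the 2 libraries that stood apart were left out. Its own low values in those 2 libraries were part of what set them apart, so its calls over 22 libraries are not independent support. In media it was at 191, 179 and 187 TPM with vehicle and 251, 277 and 269 TPM with CDDO-Me, a log2 difference of 0.53 ± 0.07 over 22 libraries (limma adjusted p = 6.7e-05) and 0.52 ± 0.39 over 24 (limma adjusted p = 0.65). Under WT CM, 203, 216 and 191 TPM stood against 240, 238 and 228 TPM, without overlap (0.37 ± 0.07 over 22 libraries, limma adjusted p = 5.3e-04, and 0.32 ± 0.39 over 24, limma adjusted p = 0.63). Under KEAP1 KO CM, 217, 227 and 221 TPM overlapped 286, 249 and 222 TPM (0.38 ± 0.07 over 22, limma adjusted p = 3.6e-04, and 0.35 ± 0.39 over 24, limma adjusted p = 0.58). Under NRF2 KO CM the first 2 libraries were at 177 and 184 TPM with vehicle and 282 and 270 TPM with CDDO-Me (0.64 ± 0.09 over 22, limma adjusted p = 1.2e-04, and 0.91 ± 0.39 over 24, limma adjusted p = 0.17). In media its treated and vehicle libraries did not overlap. Psmb5 shares 57.9% of its 31-base words with other annotated genes, so the split of its reads is uncertain; for Psme1 the share is 57.7%, most of it with Emc9, and for Psmb7 33.5%, most of it with Nek6.

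Counted over the 8 genes, 7 passed in the CDDO-Me comparison under WT CM (6 higher, 1 lower), where 27.8% of the 13661 genes tested passed, and 6 passed under KEAP1 KO CM (all higher) against 28.8%. In media 0 of 8 passed against 6.02%, and under NRF2 KO CM 0 of 8 passed against 9.78%; at an unadjusted limma p under 0.05 these counts were 0 and 1 over 24 libraries and 3 and 1 over 22. Over 22 libraries 8 of 8 passed under WT CM (43.7% of genes) and under KEAP1 KO CM (45.3%), and 1 of 8, Psmb5, passed in media (15.6%) and under NRF2 KO CM (9.97%). For the 5 induced genes over 22 libraries, the upper 95% bounds of the log2 difference in media were -0.01 to 0.34 and under NRF2 KO CM 0.03 to 0.32, and the lower bounds under WT CM in the same fit were 1.23 to 2.48. Over 24 libraries the upper bounds were 0.06 to 0.64 in media and 0.28 to 0.99 under NRF2 KO CM, and the lower bounds under WT CM 0.87 to 2.25, so for Psmb10 the intervals of WT CM (from 0.87) and NRF2 KO CM (to 0.99) overlapped. The median log2 difference over all genes lay between -0.03 and -0.01 in these 4 comparisons.

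**Figure D2:**
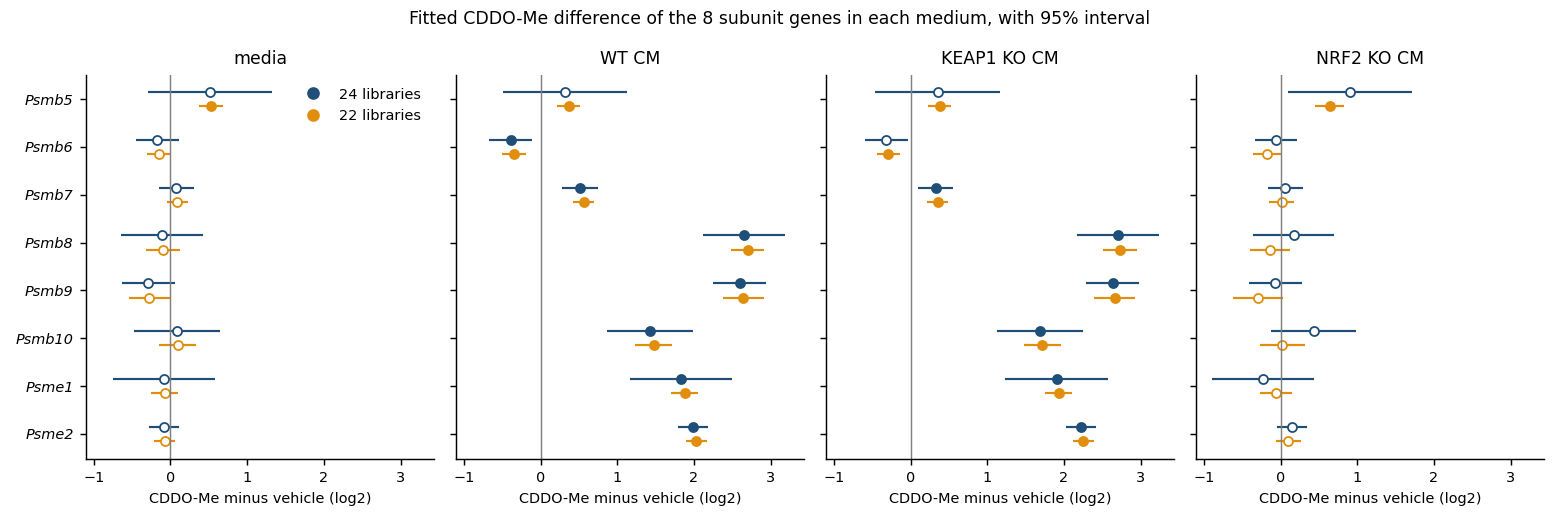
Fitted CDDO-Me minus vehicle difference (log2 scale, x axis) of each gene in the 4 media, with 95% intervals; blue is the fit of 24 libraries, orange that of 22, and filled marks passed the adjusted threshold. The 5 induced genes lie between 1.43 and 2.73 under WT CM and KEAP1 KO CM and near 0 elsewhere, and the Psmb5 intervals shrink when the 2 libraries are left out.

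The change of each induced catalytic subunit relative to the constitutive subunit of the same activity was read within each library, which removes any scaling between libraries. It does not remove the uncertain split of shared reads. In each pair 1 member shares many of its 31-base words with other genes: Psmb5 (57.9%), Psmb9 (36.7%) and Psmb7 (33.5%). Levels of the paired genes, and the summed shares below, carry this limit. With vehicle, Psmb8 stood at 0.758 ± 0.063 (SD, n = 3) of Psmb5 in media, 0.811 ± 0.093 under WT CM and 0.713 ± 0.034 under KEAP1 KO CM. With CDDO-Me the ratio was 0.490 ± 0.059 in media, and 4.10 ± 0.33 and 3.70 ± 0.76 under WT CM and KEAP1 KO CM. Thus the beta5i transcript was below the beta5 transcript in every vehicle library but 1, the third of NRF2 KO CM (1.37), and above it by at least 3.05-fold in the 6 treated WT CM and KEAP1 KO CM libraries. The Psmb9 to Psmb6 ratio moved from 0.134 ± 0.016 to 1.08 ± 0.096 under WT CM and from 0.130 ± 0.0092 to 1.03 ± 0.10 under KEAP1 KO CM, so beta1i reached about the level of beta1. In media it was 0.119 ± 0.0095 and 0.109 ± 0.0096. The Psmb10 to Psmb7 ratio went from 1.66 ± 0.28 to 3.09 ± 0.15 under WT CM and from 1.33 ± 0.10 to 3.42 ± 0.092 under KEAP1 KO CM, against 0.990 ± 0.12 and 0.989 ± 0.034 in media.

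Summed, the 3 induced catalytic genes were 32.3% ± 0.34 of the TPM of the 6 catalytic genes in media with vehicle and 30.0% ± 1.5 with CDDO-Me. They were 38.7% ± 3.3 under WT CM with vehicle and 72.7% ± 0.57 with CDDO-Me, and 35.6% ± 1.0 and 72.1% ± 1.5 under KEAP1 KO CM. Under NRF2 KO CM the shares were 32.4% ± 4.3 and 32.5% ± 2.6. The summed constitutive genes themselves were at 721 ± 18.7 TPM under WT CM with vehicle and 692 ± 11.6 TPM with CDDO-Me, so the share moved with the induced genes.

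**Figure D3:**
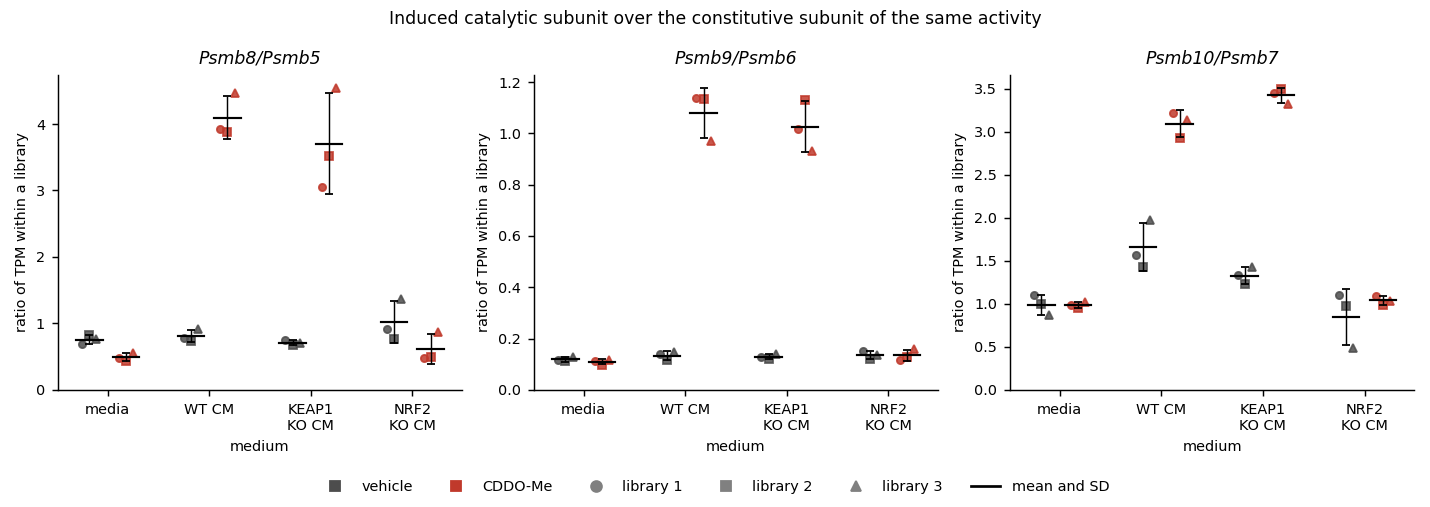
Ratio of TPM within a library (y axis, linear from 0) of each induced catalytic subunit to its constitutive counterpart in the 4 media; grey is vehicle, red CDDO-Me, black bars are mean and SD (n = 3). The treated WT CM and KEAP1 KO CM libraries reach 3.05 to 4.54 for Psmb8/Psmb5, 0.930 to 1.14 for Psmb9/Psmb6 and 2.92 to 3.49 for Psmb10/Psmb7.

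With vehicle, WT CM raised 2 of the genes over media. In WT CM against media, 2 of 8 genes passed against 7.34% of all genes: Psmb10, by 0.92 ± 0.27 on the log2 scale (limma adjusted p = 0.040), and Psme2, by 0.33 ± 0.09 (limma adjusted p = 0.030), from 175, 192 and 177 TPM in media to 213, 212 and 231 TPM. For both genes the groups did not overlap. Leaving out any one of the 6 libraries compared, or KEAP1 KO CM vehicle replicate 1, media CDDO-Me replicate 1 or WT CM CDDO-Me replicate 1, left 0 or 1 of the 8. Over 22 libraries Psmb10, Psme1 and Psme2 passed (19.1% of genes), and with library number as a block over those 22, 7 of 8 passed (30.7% of genes). In KEAP1 KO CM against media, 0 of 8 passed (7.96% of genes; 1 at an unadjusted limma p under 0.05), and over 22 libraries 3 of 8, Psmb5, Psmb7 and Psmb10 (21.8%); Psmb10 was at 202, 194 and 223 TPM, above all media libraries, with a difference of 0.63 ± 0.27 over 24 libraries (limma adjusted p = 0.19) and 0.63 ± 0.11 over 22 (limma adjusted p = 6.8e-04). NRF2 KO CM against media with vehicle gave 0 of 8 over 24 libraries (0.00732% of genes; 1 at an unadjusted limma p under 0.05) and 0 of 8 over 22 (0%).

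With CDDO-Me present, conditioned medium from WT and KEAP1 KO cells was compared with media. In WT CM against media, 6 of 8 passed (26.8% of genes; over 22 libraries 6 of 8 and 44.1%), all higher: the log2 differences were 3.05 ± 0.25 for Psmb8 (limma adjusted p = 1.5e-08), 3.26 ± 0.17 for Psmb9 (limma adjusted p = 9.1e-12), 2.27 ± 0.27 for Psmb10, 2.30 ± 0.32 for Psme1, 2.41 ± 0.09 for Psme2 and 0.63 ± 0.11 for Psmb7. In KEAP1 KO CM against media, the same 6 genes, by symbol, passed (22.5% of genes; 39.9% over 22 libraries), at 2.97, 3.17, 2.24, 2.20, 2.47 and 0.45 in that order; without scaling the Psmb7 value of 0.29 did not pass (limma adjusted p = 0.14). In NRF2 KO CM against media, 0 of 8 passed in either fit (0.154% and 0.0885% of genes; 0 of 8 at an unadjusted limma p under 0.05 over 24 libraries). These comparisons share the media libraries.

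Whether editing KEAP1 in the tumour cells changed the response of these genes was read from KEAP1 KO CM against WT CM. No gene of the 8 passed with vehicle (0% of all genes, limma over 24 libraries; 0 of 8 at an unadjusted p under 0.05; over 22 also 0%, with 2 of 8 at an unadjusted p under 0.05) or with CDDO-Me (0.0512% of genes; 0.354% over 22; 0 of 8 at an unadjusted p under 0.05 over 24 and 1 of 8, Psmb7, over 22). With CDDO-Me, Psme2 differed by 0.06, with a 95% interval of -0.13 to 0.25. The 8 intervals over 24 libraries all included 0, the widest being -0.73 to 0.89 for Psmb5. Over 22 libraries Psmb8 had an interval of -0.30 to 0.13, Psmb9 of -0.36 to 0.17, Psmb10 of -0.28 to 0.20 and Psme1 of -0.28 to 0.07. For these genes, differences beyond the bounds were outside the intervals, and smaller ones were inside them. The interval of Psmb7 over 22 libraries was -0.32 to -0.05, and with library number as a block it passed as the 1 gene of 8 (3.39% of genes). Its libraries, 192, 193 and 199 TPM against 175, 164 and 180 TPM, did not overlap. With vehicle, Psmb10 differed by -0.30 ± 0.27, with an interval of -0.86 to 0.26. Over 22 libraries its interval was -0.53 to -0.04 and that of Psme2 -0.30 to -0.03, and neither passed after adjustment (limma adjusted p = 0.64 and 0.63).

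WT CM was also set against NRF2 KO CM. With CDDO-Me 6 of 8 genes were higher under WT CM (25.9% of genes; 6 of 8 and 40.5% over 22 libraries): Psmb8 by 3.19 ± 0.25 on the log2 scale (limma adjusted p = 8.7e-09), Psmb9 by 3.22 ± 0.17, Psmb10 by 2.41 ± 0.27, Psme1 by 1.89 ± 0.32, Psme2 by 2.33 ± 0.09 and Psmb7 by 0.84 ± 0.11. Over 22 libraries Psme1 differed by 2.28 ± 0.09 (limma adjusted p = 2.3e-12). With vehicle 5 of 8 passed (10.7% of genes): Psmb6, Psmb7, Psmb9, Psmb10 and Psme2, led by Psmb10 at 1.41 ± 0.27 (limma adjusted p = 0.0017), which over 22 libraries was 0.88 ± 0.13 (limma adjusted p = 1.4e-04). Over 22 libraries 6 of 8 passed (15.4%), Psmb9 no longer among them (0.34, limma adjusted p = 0.12). Leaving out NRF2 KO CM vehicle replicate 3 alone, or WT CM vehicle replicate 1 or 3, gave 3 of 8. The first 2 NRF2 KO CM vehicle libraries held Psmb10 at 143 and 135 TPM, near the media libraries and below those of WT CM, and the third held it at 40.6 TPM. The Psmb10 result over 22 libraries is thus not independent of its own low value there.

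The difference of the CDDO-Me effect between media was itself tested. Between WT CM and media it passed for all 5 induced genes and for none of the constitutive genes (15% of all genes; over 22 libraries 6 of 8, with Psmb7, and 28.9%). The effect was larger under WT CM by 2.89 ± 0.23 on the log2 scale for Psmb9 (limma adjusted p = 2.1e-08), 2.77 ± 0.36 for Psmb8 (limma adjusted p = 1.1e-05) and 1.35 ± 0.38 for Psmb10 (limma adjusted p = 0.018), whose call was lost without WT CM vehicle replicate 2 (1.24, limma adjusted p = 0.053). Between KEAP1 KO CM and media the same 5 genes passed (14.7%; over 22 libraries 6 of 8 and 29.8%), and between KEAP1 KO CM and WT CM 0 of 8 (0% in both fits; limma, at an unadjusted p under 0.05 0 of 8 over 24 libraries and 2 of 8, Psmb7 and Psme2, over 22). Between WT CM and NRF2 KO CM 4 passed (13.3%), all of the induced genes but Psmb10, at 1.00 ± 0.38 (limma adjusted p = 0.096). Without NRF2 KO CM vehicle replicate 3 the Psmb10 value was 1.54 (limma adjusted p = 4.6e-06), and over 22 libraries it was 1.45 ± 0.18 (limma adjusted p = 1.0e-05), with 6 of 8 genes passing (21.7%). Psmb10 was itself low in that vehicle library, so these Psmb10 calls are not independent support. Between NRF2 KO CM and media 0 of 8 passed in both fits (0% and 0% of genes; limma, 0 of 8 at an unadjusted p under 0.05 over 24 libraries). All contrasts of effect against media share the media libraries.

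Across the 8 groups the order of mean levels set the treated WT CM and KEAP1 KO CM groups first and second for each induced gene. Psmb8 came in at 961 ± 50.02 and 919 ± 77.5 TPM (SD, n = 3), whose libraries overlapped, then WT CM with vehicle at 164 ± 9.28 TPM, which did not overlap them. Psmb10 followed the same order, 602 ± 33.9 and 592 ± 16.3 TPM, then 243 ± 42.0 TPM under WT CM with vehicle and 206 ± 14.9 TPM under KEAP1 KO CM with vehicle, overlapping each other and apart from the 4 remaining groups at 106 to 140 TPM. Psme2 had KEAP1 KO CM with CDDO-Me first (848 ± 17.6 TPM) and WT CM with CDDO-Me second (807 ± 18.2 TPM), without overlap. Psme1 reversed that order, 615 ± 14.5 TPM under WT CM and 580 ± 22.7 TPM under KEAP1 KO CM, also without overlap. For Psmb5 the treated media group was first (266 ± 13.1 TPM) and overlapped the second, KEAP1 KO CM with CDDO-Me (252 ± 32.1 TPM). Psmb6 was highest in the vehicle groups of WT CM (371 ± 9.66 TPM) and KEAP1 KO CM (366 ± 10.5 TPM), which overlapped.

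The other genes of the 20S core, which have no catalytic site, rose in part with the induced genes. Of the 11 core genes listed (7 alpha and 4 beta), 8 passed under WT CM with CDDO-Me and 7 under KEAP1 KO CM, all higher, with medians of 0.43 and 0.47 on the log2 scale; in media 0 passed (median 0.24, all genes -0.01) and under NRF2 KO CM 1 (Psma5, 0.46, limma adjusted p = 0.041; median 0.15). Among all genes the shares passing in these 4 comparisons were 27.8%, 28.8%, 6.02% and 9.78%. Over 22 libraries the core counts were 10, 11, 5 and 0, beside 43.7%, 45.3%, 15.6% and 9.97% of all genes. Psma5 differed most clearly, by 1.15 (limma adjusted p = 1.9e-06) under WT CM, followed by Psma7 at 0.90 and Psma3 at 0.88. Of 18 genes of the 19S regulatory particle, which unfolds substrates, 2 were higher and 1 lower under WT CM, a smaller share than the 27.8% of all genes, and their median difference was 0.11; Psmd7 was higher by 0.50 and Psmd8 lower by 0.54. Over 22 libraries 9 of 18 were higher and 1 lower under WT CM (43.7% of all genes passed), and 10 higher and 1 lower in media (15.6% of all genes). Over 24 libraries Psmd7 was also the one gene of that particle to pass in media, by 0.44 (limma adjusted p = 0.0063). Pomp, the chaperone that brings beta subunits into the maturing core, was at 216, 224 and 230 TPM under WT CM with vehicle and 424, 435 and 524 TPM with CDDO-Me (1.15 ± 0.15, limma adjusted p = 6.9e-06). Psmg4, another assembly chaperone, rose by 0.76, while the chaperones Psmg1 and Psmg2 fell by 0.68 and 0.30 (limma adjusted p = 4.2e-04 and 0.031). Thus of 7 assembly and other activator genes 2 were higher and 2 lower under WT CM, where 27.8% of all genes passed. The thymic beta5t gene Psmb11 was below the filter, at group means of 0.119 to 0.25 TPM.

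Among the listed regulator genes, Irf1, an interferon-induced transcription factor, went from 74.6, 56.8 and 112 TPM under WT CM with vehicle to 890, 915 and 986 TPM with CDDO-Me (log2 difference 3.67 ± 0.25, limma adjusted p = 8.5e-10). Nlrc5, the transactivator of class I genes, went from 10.0, 11.4 and 9.64 TPM to 80.8, 98.6 and 100 TPM (3.16 ± 0.20, limma adjusted p = 2.3e-10). Both also passed under KEAP1 KO CM, at 3.86 and 3.25, and treated and vehicle libraries did not overlap. In media Irf1 was at 48.4, 46.7 and 54.2 TPM with vehicle and 59.7, 50.1 and 76.5 TPM with CDDO-Me, with overlap, and neither gene passed. Nlrc5 was the exception under NRF2 KO CM, higher by 0.73 ± 0.20 (limma adjusted p = 0.023), at 10.8, 10.5 and 15.6 TPM with vehicle and 18.5, 19.6 and 24.7 TPM with CDDO-Me. Ifng, the gene for interferon gamma, was listed at 0 in 23 libraries and at 0.0637 TPM in 1, and Ifnb1 was listed at 0 in 23 and at 0.131 TPM in 1. Nfe2l1, the transcription factor that restores proteasome genes after inhibition, differed by 0.32 ± 0.13 under WT CM and did not pass (limma adjusted p = 0.076). Nfe2l2, which encodes NRF2, differed by -0.66 ± 0.26 there (limma adjusted p = 0.071). Over 22 libraries both passed under WT CM, at 0.37 for Nfe2l1 and -0.61 for Nfe2l2 (limma adjusted p = 0.0097 for each).

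The peptide loading path moved alongside. Of 9 listed class I path genes, 7 passed under WT CM (27.8% of all genes) and 7 under KEAP1 KO CM (28.8%). All of these were higher, and the 9 had medians of 1.29 and 1.42. In media 0 passed (6.02% of all genes), and under NRF2 KO CM 1 passed, lower (9.78%). That gene was Calr, which fell by 0.70 and did not pass over 22 libraries. Under WT CM the transporter gene Tap2 rose by 2.88 (limma adjusted p = 1.7e-06), the tapasin gene Tapbp by 2.16 and the heavy chain gene H2-K1 by 1.29. Tap1 was at 25.6, 27.0 and 26.4 TPM with vehicle and 362, 351 and 377 TPM with CDDO-Me. Targets of NRF2 were raised whatever the medium. All 8 listed were higher with CDDO-Me in media (6.02% of all genes passed), under KEAP1 KO CM (28.8%) and under NRF2 KO CM (9.78%). Under WT CM 7 of 8 were higher (27.8%). Nqo1, the quinone reductase, was at 2.63, 2.51 and 4.96 TPM in media with vehicle and 104, 79.0 and 219 TPM with CDDO-Me, a difference of 4.85 (limma adjusted p = 2.1e-08). The induced proteasome genes did not pass in that comparison, and whether these responses are linked was not tested.

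**Figure D4:**
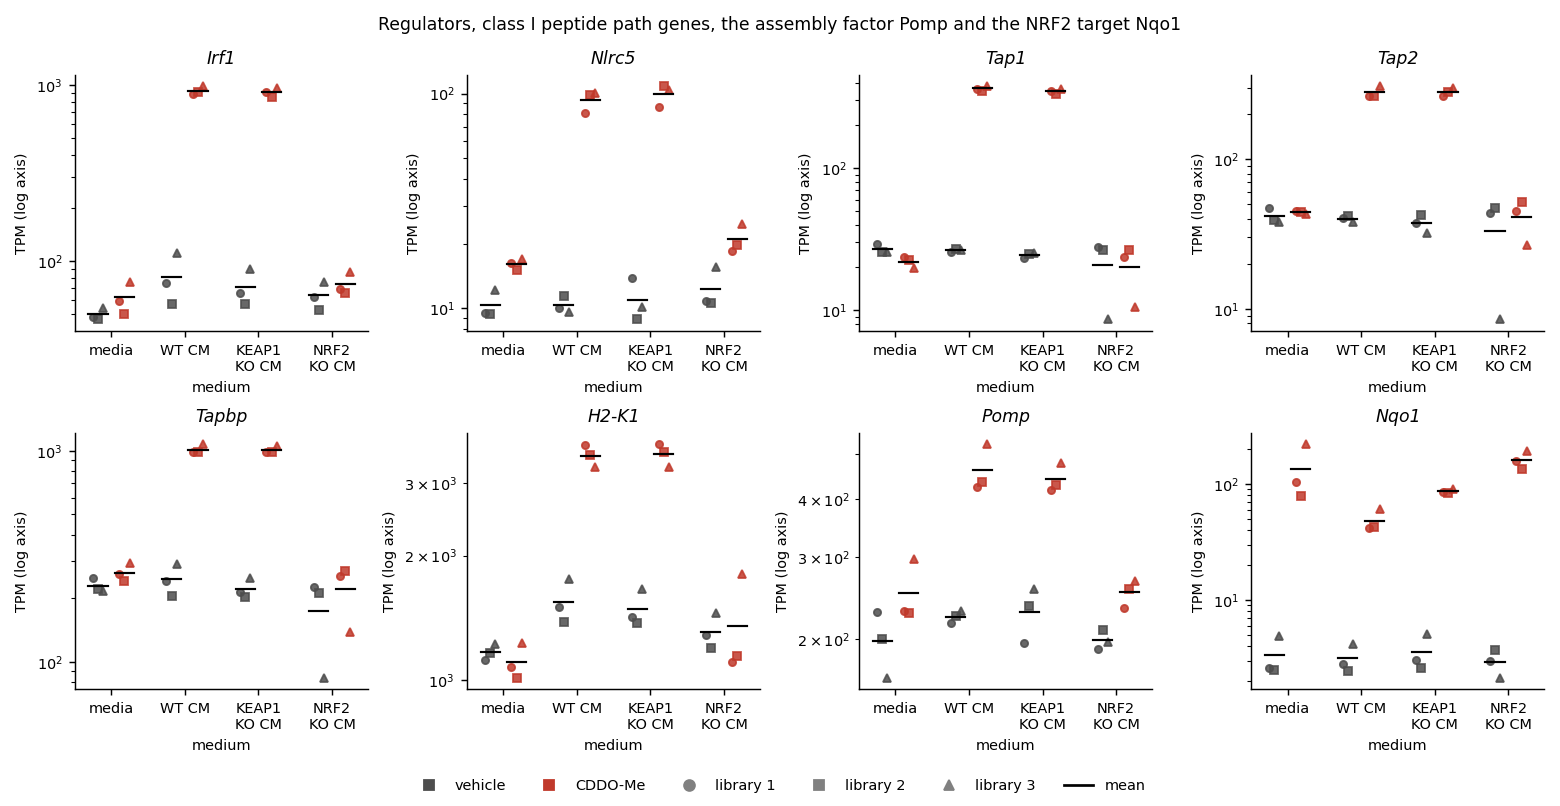
TPM (log axis) of 2 regulators, 4 class I peptide path genes, Pomp and Nqo1 in the 4 media; grey is vehicle, red CDDO-Me, shapes give the library number and black bars the mean (n = 3). Irf1, Nlrc5, Tap1, Tap2, Tapbp and H2-K1 are high in the treated WT CM and KEAP1 KO CM libraries, whereas Nqo1 is high in all 4 treated groups.

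The genes whose log2 level over the 24 libraries was most like the mean of the 5 induced genes were Ifi47 (Pearson r = 0.993), Gm12250 (0.9927), Batf2 (0.9904), Wars1 (0.9898), H2-DMb1 (0.9896), Fgl2 (0.9885), Zbp1 (0.988) and Serpina3f (0.9876), of 13653 other genes. The libraries share treatments, so these values are a description. Serpina3f rose from 0.764 to 232 TPM in group mean under WT CM. For the mean of the 3 constitutive genes the nearest were Ppp1ca (0.9803), Nr2c2ap (0.9713) and Arpc1b (0.9712), which fell to 0.9133, 0.8543 and 0.8726 without the 2 libraries that stood apart. Among the members, Psmb8 and Psme2 had r = 0.986 over 24 libraries and 0.997 over 22, while Psmb5 and Psmb6 had 0.479 and -0.44.

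Markers of other cells also moved with treatment. The dendritic cell sum rose and the stromal sum fell under WT CM and KEAP1 KO CM, and the neutrophil sum rose in all 4 media. Of 6 dendritic cell markers 3 were below 1 TPM in every library. The 6 summed to 47.0 to 127 TPM in the treated WT CM and KEAP1 KO CM libraries and to 0.998 to 2.13 TPM in the other groups. Clec9a carried that sum, at group means of 105 and 60.3 TPM, with Xcr1 at 3.86 and 2.07 TPM, while Flt3, Ccr7 and Siglech stayed below 1 TPM. Zbtb46 went the other way, from 0.769 to 0.514 TPM under WT CM and from 0.969 to 0.598 TPM under KEAP1 KO CM. None of the 6 was at 0 in all libraries. Under KEAP1 KO CM the 8 fibroblast and stromal markers summed to 970 to 1757 TPM with vehicle and to 217 to 927 TPM with CDDO-Me, without overlap. Under WT CM they summed to 671 to 1275 TPM and then 256 to 698 TPM, with overlap. In media the sums were 1129 to 1875 and 1079 to 2803 TPM, and under NRF2 KO CM 906 to 2694 and 540 to 2024 TPM. The 5 B cell markers summed to 0.536 to 2.65 TPM, the 5 T and NK cell markers to 0.392 to 1.70 TPM and the 4 epithelial markers to 0.214 to 4.72 TPM over all libraries. The 6 neutrophil markers summed to 65.6 to 75.8 TPM under KEAP1 KO CM with CDDO-Me against 15.7 to 25.6 TPM with vehicle, to 33.3 to 59.7 against 11.3 to 37.7 TPM under WT CM, to 32.2 to 50.7 against 15.2 to 27.6 TPM in media and to 34.4 to 65.0 against 14.2 to 29.3 TPM under NRF2 KO CM. S100a8 carried this rise, at group means of 10.1 and 56.8 TPM under KEAP1 KO CM with vehicle and CDDO-Me. In those groups S100a9 was at 8.43 and 10.7 TPM, Ngp at 1.45 and 1.65 TPM and Ltf at 0.825 and 0.747 TPM. Camp and Ly6g had means below 1 TPM in both. The part of these markers in the proteasome results was not tested.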

How the data were processed

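Macrophage RNA from 24 libraries in 8 groups of 3 was sequenced. Per the labels and the methods of the study, the authors pseudoaligned poly-A reads with kallisto to the GRCm39 transcriptome and the deposited table gives TPM per gene; its columns sum to 1 common total, so it was treated as TPM although it is named as counts. The 1 row without a gene name (0.0199 to 0.0635% of a library) was left out. Here, genes above 1 TPM in at least 3 libraries were kept (13661, or 13562 over 22 libraries), scaled between libraries by an unweighted trimmed mean of M-values (30% of M and 5% of A trimmed), and tested on log2(TPM + 1), which understates changes of low genes, with limma 3.58.1 (R 4.3.3), a mean-variance trend and Benjamini-Hochberg adjustment over all genes at 0.05, all groups sharing 1 spread estimate (16 residual degrees of freedom, or 14). Fold values are 2 raised to that difference. The code was tested on simulated data. Alternatives were other scalings, filters and pseudocounts, array weights, no trend, the groups compared alone, a replicate block and leaving out libraries. The members and lists were chosen with earlier results of these data known. List genes are named where they passed, at most 4 per list and comparison, besides regulators and copies; 1 listed regulator is not reported here. The labels call the 3 samples of a group independent without naming separate mice, so p-values measure the spread between these samples, which may be technical. Equal replicate numbers carry no stated link, although the library names repeat the same numbers in every group. Same-numbered libraries deviated together (every pair r over 0.1) in 8 of 14 comparisons. Over all 14, same-numbered pairs had r of 0.0221 to 0.717, all above 0, and differently numbered libraries had mean r of -0.238 to -0.0658. Centring each group on its mean makes the latter negative where the former are positive, so they add no separate evidence. The main fits leave this out, and the block is printed where it changed a count. Intervals are 95%.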

Additional observations from a re-analysis of the deposited data

Results flagged for a closer look

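The effect of CDDO-Me on the induced genes differed between media, by the interaction term of the limma fit over 24 libraries. Between WT CM and media the log2 effect was larger under WT CM by 2.77 for Psmb8, 2.89 for Psmb9, 1.35 for Psmb10, 1.92 for Psme1 and 2.07 for Psme2. Between KEAP1 KO CM and media the excess was 2.82 for Psmb8, 2.93 for Psmb9, 1.61 for Psmb10, 1.99 for Psme1 and 2.31 for Psme2. Between WT CM and NRF2 KO CM it was 2.48 for Psmb8, 2.67 for Psmb9, 2.06 for Psme1 and 1.84 for Psme2. These contrasts share libraries. In each, the 3 treated libraries of WT CM or KEAP1 KO CM were above their 3 vehicle libraries for every one of these genes. No cause was tested.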

How the results depend on the processing

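Of the 19 counts of genes passing among the 8, these moved by over 1.5 times or between 0 and more. For CDDO-Me in media (0 over 24 libraries), array weights gave 3, and leaving out both NRF2 KO CM libraries numbered 3, the same with the replicate block, and fitting the groups alone each gave 1. For CDDO-Me under NRF2 KO CM (0), array weights gave 3, leaving out both libraries 1, with the block 1, and leaving out single libraries 0 to 1. For WT CM against media with vehicle (2), no scaling and no filter gave 0, array weights 7, the replicate block over 22 libraries 7, the groups alone 4 and single leave-outs 0 to 2. For KEAP1 KO CM against media with vehicle (0), array weights gave 5, 22 libraries 3, with the block 4, the groups alone 2 and single leave-outs 0 to 1. For WT CM against NRF2 KO CM with vehicle (5), no scaling gave 3, the groups alone 0 and single leave-outs 3 to 7. For KEAP1 KO CM against WT CM with CDDO-Me (0), the block over 22 libraries gave 1. The cause of these moves was not tested. The CDDO-Me calls of the 5 induced genes under WT CM and KEAP1 KO CM held in every setting run, and no difference among the 8 genes that passed over 24 libraries changed sign in a setting run. Some that did not pass changed sign: over 22 libraries Psme1 in WT CM against NRF2 KO CM with vehicle went from -0.17 to 0.34, then passing (limma adjusted p = 0.017), and Psmb8 for CDDO-Me under NRF2 KO CM from 0.17 to -0.14. Smaller moves over 22 libraries were 7 to 8 and 6 to 8 for CDDO-Me under WT CM and KEAP1 KO CM, 5 to 6 for WT CM against NRF2 KO CM with vehicle, and 5 to 6, 5 to 6 and 4 to 6 for the CDDO-Me effect in WT CM minus media, KEAP1 KO CM minus media and WT CM minus NRF2 KO CM. With the replicate block over 24 libraries no call among the 8 genes changed, while the count over all genes rose from 822 to 1466 for CDDO-Me in media, from 1003 to 1734 and from 1087 to 1770 for WT CM and KEAP1 KO CM against media with vehicle, from 1 to 4 and from 21 to 148 for NRF2 KO CM against media with vehicle and CDDO-Me, from 1457 to 2568 for WT CM against NRF2 KO CM with vehicle and from 7 to 28 for KEAP1 KO CM against WT CM with CDDO-Me. Counts over all genes moved by over 1.5 times in all 19 comparisons with array weights, in 14 over 22 libraries, in 18 with the block over 22 libraries and in 12 with the groups alone; for CDDO-Me under WT CM they were 7140, 5926, 7120 and 5029 against 3798. Without scaling, the median over all genes was down to -0.17, and the share of higher calls moved by over 10 points in 8 comparisons, falling from 49.9 to 39.1% for CDDO-Me under WT CM and from 50.5 to 34.6% under KEAP1 KO CM. The fitted effect difference of Psme1 between WT CM and NRF2 KO CM missed the threshold with the groups alone (2.03, limma adjusted p = 0.0504).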
